A study of Mus musculus with 8 samples.

Results

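The genes described here encode voltage-gated potassium channels of the Kv families, the cytoplasmic Kv beta subunits, the KChIP proteins that bind Kv4 channels and the small KCNE subunits. They were taken by symbol: every non-control probe on the array whose gene name begins with Kcna, Kcnb, Kcnc, Kcnd, Kcnf, Kcng, Kcnh, Kcnq, Kcns, Kcnv, Kcnab, Kcnip or Kcne followed by a digit. This gave 53 genes with 86 probes. A gene counted as measured when 4 or more of the 8 arrays had a probe of it that the scanner software marked as well above background. By that rule 48 of the 53 genes (90.6%) were measured, through 72 probes, and these 48 are among the 26917 genes tested on the array in all. The 5 others were Kcne1 and Kcne2, with no probe above background on any array, and Kcnq1, Kcns3 and Kcnv2, each above background on at most 1 array. Kcnq1ot1 also matches the rule by its name, although it is a noncoding RNA transcribed from inside the Kcnq1 gene and not a channel.

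RNA came from striatal medium spiny neurons (MSNs) sorted from male mice 4 weeks old. MSNs release GABA, send the striatum's output and make up most of its neurons. One group of 4 arrays held MSNs of R6/2;Scn4b-Venus mice and the other 4 held MSNs of WT;Scn4b-Venus mice. R6/2 mice carry a transgene with the first exon of human HTT with an expanded CAG repeat, and model Huntington's disease with an early onset. Both groups carry the fluorescent reporter Venus tied to Scn4b, a sodium channel subunit gene that is abundant in MSNs, and the sort kept cells that carried Venus and had not taken up propidium iodide, a dye that enters dead cells. Direct pathway and indirect pathway MSNs both express Scn4b and were not separated. The labels do not say whether each array held a single mouse or a pool, so p-values measure the spread between these samples.

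Voltage-gated potassium channels open when the membrane depolarises and carry the outward current that ends an action potential or holds a neuron back from firing. In MSNs, Kv4 channels with KChIP and DPP partners carry a fast inactivating A-type current in the dendrites, Kv1 channels with Kv beta subunits carry a slowly inactivating current that delays the first spike, and Kv7 channels carry the M current that muscarinic receptors close. KChIPs are calcium-binding proteins of the EF-hand type that bring Kv4 channels to the surface and set how fast they inactivate, and KChIP3 is also known as the transcriptional repressor DREAM.

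The measurements rest on the 60-base probes of the array. The probes shown are the only one for Kcnip2, the one used for its relative Kcnip4, and, for Kcnq5 and Kcnd1, a second probe whose own values are given below and which is not the one used for the gene. Each can be read in at least 1 forward frame without an internal stop codon. In the Kcnip2 and Kcnip4 probes the capitals mark the longest run of bases the pair shares, 8 bases, and in the Kcnd1 probe they mark the stop codon at its end.
Kcnip2: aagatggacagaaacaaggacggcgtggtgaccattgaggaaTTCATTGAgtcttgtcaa
Kcnip4: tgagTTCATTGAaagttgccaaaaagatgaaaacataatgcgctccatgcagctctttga
Kcnq5: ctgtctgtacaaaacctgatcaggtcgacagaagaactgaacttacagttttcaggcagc
Kcnd1: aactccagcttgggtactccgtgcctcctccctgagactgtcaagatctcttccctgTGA
On mm9, the Kcnip2 probe lies at chr19:45868494-45868553 on the minus strand, where its bases cover part of an EF hand. The Kcnip4 probe spans chr5:48782161-48787268 on the minus strand, a stretch longer than the probe and so across a splice junction. The Kcnq5 probe lies at chr1:21392496-21392555 on the minus strand, and the Kcnd1 probe at chrX:7413570-7413629 on the plus strand. Among the 2523 pairs of tested probes for different genes of the set, the longest exact run shared was 11 bases.

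The arrays differed in how much they detected. Probes well above background made up 66.6% ± 11.5 (SD, n = 4) of all probes in WT, with the lowest share, 50.1%, in WT replicate 1, and 76.0% ± 2.01 in R6/2 (exact permutation test, two-sided, p = 0.114, where the smallest possible p is 0.0286). Of the arrays, 7 shared a slide and R6/2 replicate 4 was alone on another. All 16 MSN markers examined were measured. All 16 had a difference below 0 (15 under quantile normalization), where 45.99% of all genes tested did. At an unadjusted p under 0.05 by limma 8 of the 16 were lower in R6/2, where 3.45% of all genes were, and none passed after adjustment. Their median difference was -0.53 on the log2 scale. Scn4b, which drives the sort, had a difference of -1.15 (limma adjusted p = 0.555), with all 4 R6/2 arrays below all 4 WT arrays. The probe for mouse Htt, which does not measure the transgene, had a difference of 0.27. Of the 14 interneuron markers 10 were measured, and Chat, Nkx2-1, Calb2 and Vip were not. Of the 8 cortical neuron markers 3 were measured, and Slc17a7, Slc17a6, Neurod6 and Fezf2 were among those not measured. The measured ones, Tbr1, Cux2 and Rorb, had differences of 0.35, 0.80 and 0.08, and Tbr1 and Rorb were well above background on all 8 arrays. All 8 oligodendrocyte markers were measured, 7 with a difference below 0. Their summed level ran from 2.80 to 5.40 in WT and from 2.78 to 3.84 in R6/2, and the myelin gene Mobp stood at 1.56 in WT replicate 2 against -2.96 to -0.43 in the other WT arrays. In RNA from pooled cells, fewer cells of a type and less RNA per cell cannot be told apart.

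No gene of the set passed the test between genotypes. Levels are log2 intensities with the 75th percentile of each array at 0, so a level can be set against that of the same gene on another array but not against that of another gene, and differences are R6/2 minus WT. At an adjusted p under 0.05 by limma, 0 of 48 genes were called, where 0.00372% of all genes tested were called (1 gene). At an unadjusted p under 0.05, 1 of 48 was lower in R6/2, where 3.45% of all genes were, and 0 of 48 were higher, where 3.69% of all genes were. In 2 of 48 genes all 4 R6/2 arrays lay below all 4 WT arrays, where 2.57% of all genes did, and in 0 of 48 they all lay above, where 2.15% of all genes did. A count of 1 or 2 in 48 is near those backgrounds and is read as no result about these genes as a group. The differences of the 48 genes had a median of -0.03, with 26 below 0 and 22 above it, beside a median of 0.03 over all genes tested. They ran from -0.89 for Kcnip2 to 0.73 for Kcnh8. The plot of differences by family shows 44 of these genes with their intervals.

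**Figure D1:**
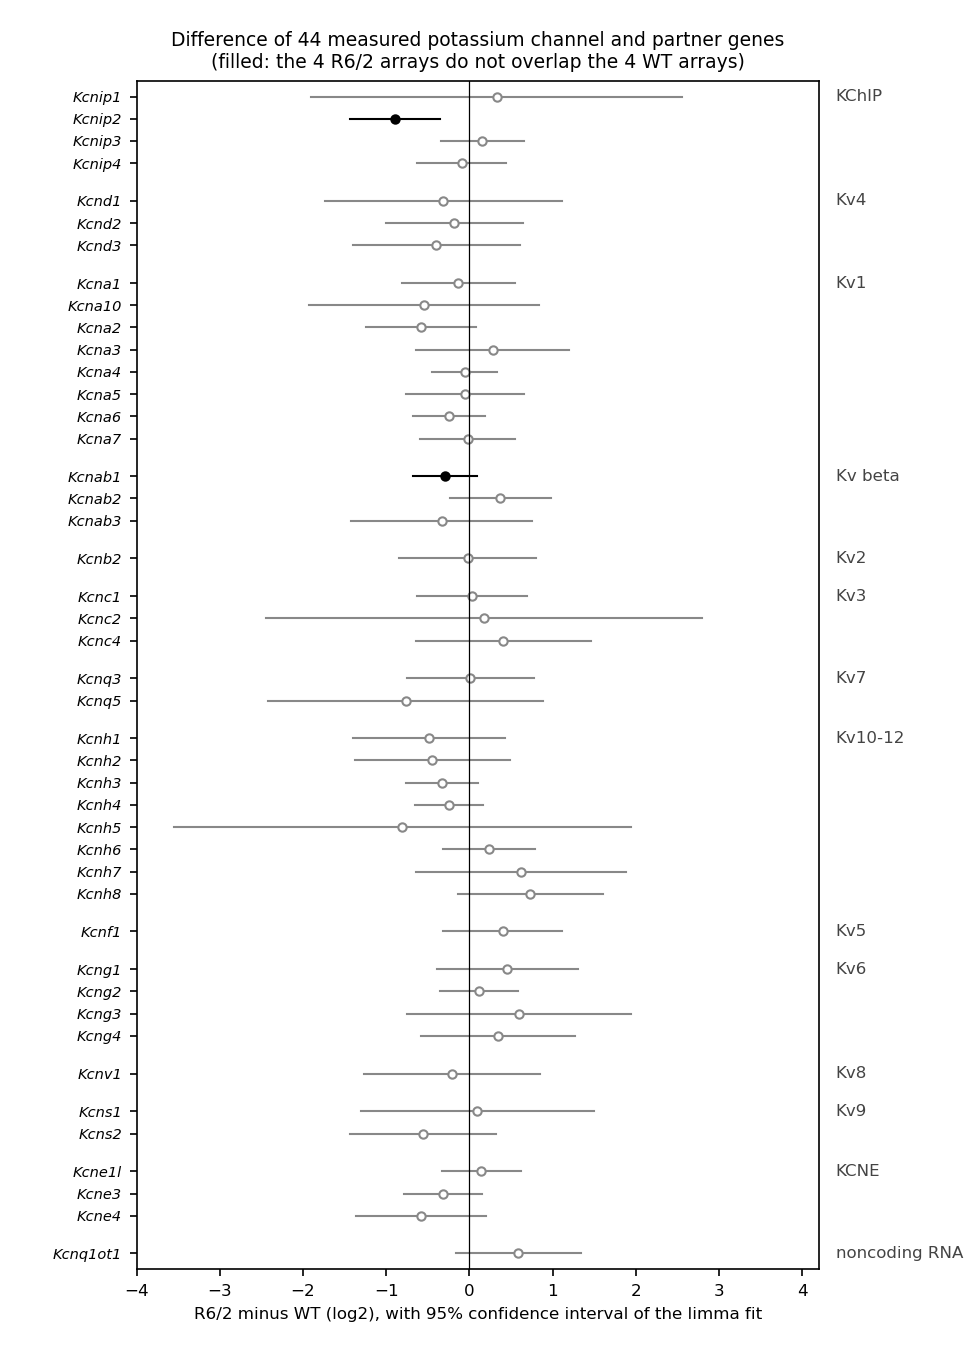
R6/2 minus WT difference (log2, horizontal axis) of 44 of the measured genes, grouped by family, with the 95% confidence interval of the limma fit; filled points are genes whose 4 R6/2 arrays do not overlap the 4 WT arrays. Kcnip2, at -0.89, is the only gene plotted whose interval lies wholly on one side of 0, and Kcnab1, at -0.30, is the other gene whose groups do not overlap.

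Among the KChIP genes, Kcnip2 was the member with the smallest p-value of the whole set. Its level was 1.62, 1.40, 2.28 and 2.14 in the WT arrays, in order of replicate number, and 1.02, 1.15, 0.90 and 0.81 in the R6/2 arrays, an order kept for every gene below. Every R6/2 array was below every WT array, and the R6/2 arrays lay closer together than the WT arrays. The group means were 1.86 ± 0.42 (SD, n = 4) and 0.97 ± 0.15 (SD, n = 4), a difference of -0.89 (SE 0.24, 95% interval -1.44 to -0.35), or 1.86-fold lower in R6/2. The limma p was 0.00508 unadjusted and 0.555 adjusted over all genes tested. In the processed intensities, before any scaling, the WT arrays ran from 907 to 1621 and the R6/2 arrays from 636 to 814. In the authors' deposited table the same probe is listed as down 1.86-fold with a p of 0.00675 and a corrected p of 0.755. The summed level of the MSN markers was also separate between the groups, from 10.16 to 10.44 in WT and from 9.69 to 9.84 in R6/2. That of the microglia markers (7 of 8 measured) was separate too, from 7.48 to 7.64 in WT and from 7.21 to 7.44 in R6/2. Most of that sum was Itgam, its 1 gene whose groups did not overlap, at 7.195 to 7.396 in WT and 6.921 to 7.194 in R6/2. Of the 7 microglia markers, 3 had a difference below 0 and 4 above, with a median of 0.135, so the sum does not speak for the list. The summed astrocyte markers (7 of 8 measured) and vascular markers (6 of 8 measured) overlapped, from 0.97 to 1.88 and from 1.81 to 2.43 in WT and from 0.40 to 2.01 and from 1.62 to 2.05 in R6/2. The part of any of these in the difference of Kcnip2 was not tested. Kcnip2 had 1 probe, the one printed above, so no second probe bears on its value.

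The other KChIP genes overlapped between genotypes. Kcnip4, which encodes KChIP4, had levels of 1.55, 1.91, 1.92 and 2.25 in WT and 2.24, 1.65, 1.86 and 1.49 in R6/2. The lowest and the highest of the 8 arrays were an R6/2 and a WT array, and the difference was -0.09 (SE 0.24, 95% interval -0.63 to 0.44). Kcnip3, the gene of KChIP3, stood at 0.30, -0.11, 0.01 and 0.25 in WT and at 0.11, -0.09, 0.68 and 0.39 in R6/2, with R6/2 replicate 3 the highest array. Its difference was 0.16 (SE 0.22, 95% interval -0.35 to 0.66). Kcnip1, the gene of KChIP1, varied more than the others within each group. It was at -3.24, 0.51, -1.94 and -1.77 in WT and at -2.90, 0.30, -2.58 and 0.06 in R6/2, a difference of 0.33 (SE 0.98, 95% interval -1.90 to 2.56), and WT replicate 1 was the array on which it was not well above background. The intervals for Kcnip3 and Kcnip4 leave out a difference as large as that estimated for Kcnip2 in the lower direction, while that for Kcnip1 does not. Whether Kcnip2 differed from its relatives in response was not tested.

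The Kv4 genes, which encode the channels that KChIPs bind, were all below 0 in their difference and all overlapped between groups. Kcnd2, which encodes Kv4.2, had levels of 4.73, 3.42, 4.75 and 5.08 in WT and 4.19, 4.22, 4.71 and 4.16 in R6/2. WT replicate 2 was the lowest of all 8 arrays, and the 3 other WT arrays were above the 4 R6/2 arrays. The difference was -0.18 (SE 0.36, 95% interval -1.0 to 0.64), and without WT replicate 2 it was -0.54 (limma unadjusted p = 0.0401, adjusted p = 0.650). WT replicate 2 was also the array with the highest Mobp, and the part of this in the level of Kcnd2 was not tested. Without WT replicate 4 the difference of Kcnd2 was 0.02, so that its direction rested on single arrays.

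Kcnd3, the gene of Kv4.3, stood at 1.45, 0.47, 0.23 and 1.61 in WT and at -0.33, 1.39, 0.51 and 0.60 in R6/2, and each group had arrays near both ends of the range. Its difference was -0.40 (SE 0.44, 95% interval -1.40 to 0.61). Kcnd1, the gene of Kv4.1, was at -0.80, -1.39, -0.58 and 0.88 in WT and at 0.40, -0.29, -2.08 and -1.17 in R6/2 by the probe used for it. Its difference was -0.31 (SE 0.63, 95% interval -1.74 to 1.12), and WT replicate 4 was its highest array and R6/2 replicate 3 its lowest. Without WT replicate 4 the difference of Kcnd1 was 0.14 and without R6/2 replicate 3 it was 0.12. The plot of Kv4 and KChIP levels sets these genes side by side.

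**Figure D2:**
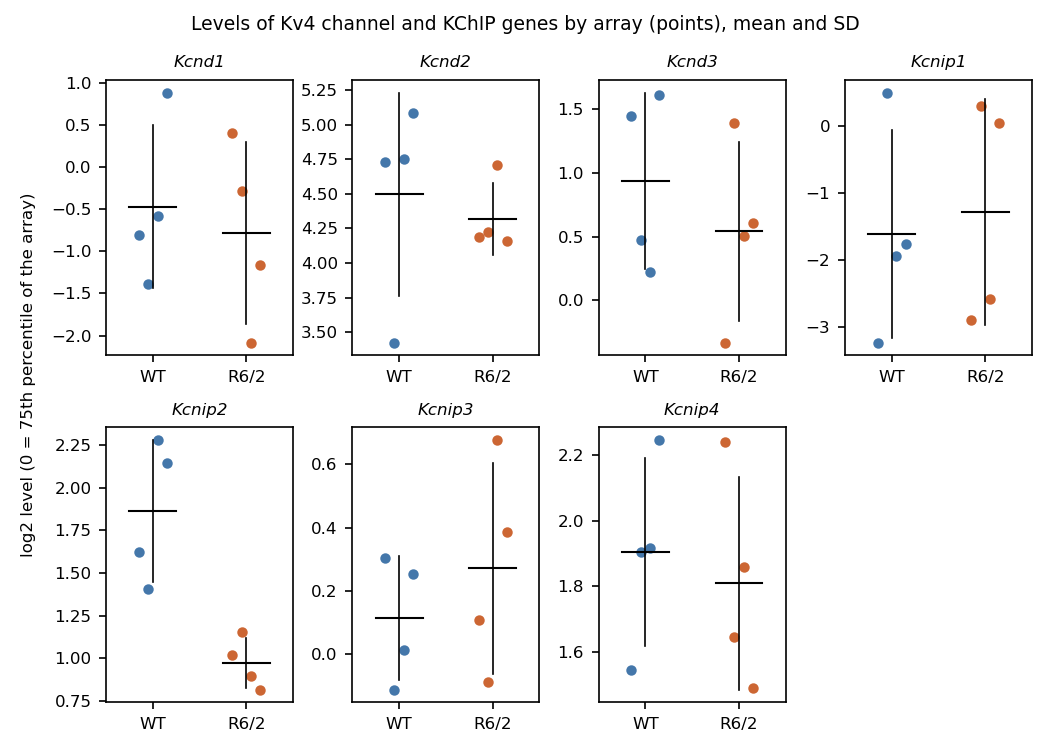
Level (log2, 0 at the 75th percentile of the array) of the 3 Kv4 genes and 4 KChIP genes on each array, WT in blue and R6/2 in orange, with the mean (horizontal bar) and SD (vertical bar) of each group; the vertical axes differ between panels. In Kcnip2 the R6/2 points, from 0.81 to 1.15, lie below the WT points, from 1.40 to 2.28, and in the 6 other panels the groups overlap.

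The Kv1 family, whose channels sit at axon initial segments and along axons, had 8 measured genes, 7 with a difference below 0 (5 under quantile normalization, 6 with normexp, 6 with array weights and 6 with the percentile over probes above background on all arrays) and a family median of -0.09. Kcna2, which encodes Kv1.2, had levels of 2.89, 2.87, 3.34 and 3.43 in WT and 1.85, 2.54, 3.04 and 2.76 in R6/2. R6/2 replicate 3 alone lay within the WT range, and R6/2 replicate 1 was the lowest array. The difference was -0.58 (SE 0.29, 95% interval -1.24 to 0.07, limma unadjusted p = 0.0754, adjusted p = 0.730). It was -0.35 without R6/2 replicate 1 and -0.75 without R6/2 replicate 3. Kcna4, the gene of the fast inactivating Kv1.4, had closely placed arrays, at 8.46, 8.27, 8.46 and 8.39 in WT and 8.58, 8.19, 8.20 and 8.39 in R6/2. The groups overlapped throughout and the difference was -0.06 (SE 0.17), with a 95% interval from -0.45 to 0.34. Kcna1, the gene of Kv1.1, stood at 1.41, 2.13, 1.07 and 2.17 in WT and at 1.25, 1.51, 1.95 and 1.55 in R6/2, all within the WT range. Its difference was -0.13 (SE 0.30), and it was 0.01 without WT replicate 2 and 0.02 without WT replicate 4. The 5 other Kv1 genes had differences between -0.54 (Kcna10) and 0.28 (Kcna3), with Kcna5, Kcna6 and Kcna7 between these at -0.05, -0.24 and -0.02. Kcna10 (SE 0.61) was dim, above background on 3 WT arrays and 4 R6/2 arrays, and its difference leaned on WT replicate 1. That array was at -1.57, against -4.54 to -3.80 in the other WT arrays and -4.36 to -3.76 in R6/2.

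Kv beta subunits bind Kv1 channels from the inside and speed their inactivation or help them to the surface. Kcnab1, which encodes Kv beta1, was the second gene of the set with groups that did not overlap. Its level was 3.52, 3.28, 3.27 and 3.40 in WT and 2.97, 2.93, 3.16 and 3.22 in R6/2. The gap between the lowest WT and the highest R6/2 array was small beside the spread within R6/2. In the processed intensities, before any scaling, the groups of Kcnab1 did overlap, from 3219 to 4050 in WT and from 2460 to 3559 in R6/2. Their separation thus depended on the scaling. The difference was -0.30 (SE 0.17, 95% interval -0.68 to 0.09, limma unadjusted p = 0.112, adjusted p = 0.764), so that it did not pass even before adjustment. Its differences over all 19 alternative settings lay between -0.35 and -0.22. The methods' t-test, which takes the spread from this gene alone, gave an unadjusted p of 0.0171 and an adjusted p of 0.641 for Kcnab1. Kcnab2, the gene of Kv beta2, went the other way, at -2.20, -2.32, -2.81 and -2.90 in WT and -2.06, -2.72, -1.78 and -2.19 in R6/2. The groups overlapped, with a difference of 0.37 (SE 0.27, 95% interval -0.24 to 0.98). Kcnab3 had a difference of -0.33 (SE 0.48).

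Kv2 channels are slow delayed rectifiers clustered on the cell body, and Kv3 channels are fast and best known from fast-spiking interneurons. Kcnb2 had a difference of -0.02 (SE 0.36). Kcnc1, the gene of Kv3.1, was at -0.68, 0.17, -0.06 and -0.79 in WT and at -0.06, -0.57, 0.05 and -0.65 in R6/2, with overlapping groups and a difference of 0.03 (SE 0.29). Kcnc2, the gene of Kv3.2, was dim, above background on 1 WT array and 3 R6/2 arrays. Its level was -3.66, -4.96, -4.69 and -4.15 in WT and -7.11, -0.69, -4.58 and -4.37 in R6/2, a difference of 0.17 (SE 1.15). R6/2 replicate 2 stood far above the other arrays and R6/2 replicate 1 far below. The parvalbumin gene Pvalb, a marker of fast-spiking interneurons, was at 3.31 in R6/2 replicate 2 and between -1.55 and 0.91 on the other 7 arrays. The other measured interneuron markers were mixed on that array. Among the R6/2 arrays it was the highest for Sst, Nos1 and Slc5a7 and the lowest for Cck, Npy and Htr3a. For Lhx6, Th and Slc18a3 it was neither. The summed interneuron markers ran from 7.42 to 7.58 in WT and from 7.24 to 7.45 in R6/2. Most of that sum was Lhx6, at 7.37 to 7.52 in WT and 7.19 to 7.40 in R6/2, so it says little of the other markers. Of the 10 measured interneuron markers, 5 had a difference below 0 and 5 above. The part of interneuron RNA in the level of Kcnc2 was not tested. Without R6/2 replicate 2 the difference of Kcnc2 was -0.99. Kcnc4 had a difference of 0.41 (SE 0.46), and its groups overlapped.

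Kv7 channels, the targets of muscarinic closure, had 4 measured genes, 3 of them with a difference above 0 (2 with each array centred on its median, with array weights and with the mean of a gene's probes). Kcnq3 and Kcnq5 both encode subunits of channels of the M type. Kcnq3 was at 0.71, -0.15, 0.52 and 0.39 in WT and at 1.26, -0.02, 0.29 and -0.01 in R6/2, with a difference of 0.01 (SE 0.33, 95% interval -0.75 to 0.77). Both groups of Kcnq3 covered much the same range. Kcnq5 stood at 0.47, -2.54, -1.25 and 0.50 in WT and at -2.40, -1.87, -0.56 and -1.07 in R6/2, a difference of -0.77 (SE 0.72, 95% interval -2.42 to 0.89). WT replicates 1 and 4 were above all R6/2 arrays, and WT replicate 2 was below them all. Without WT replicate 2 the difference of Kcnq5 was -1.38 (limma unadjusted p = 0.0492, adjusted p = 0.661), and without WT replicate 4 it was -0.37.

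The ether-a-go-go family, which includes the ERG channels, had 8 measured genes with a median difference of -0.29, 5 of them below 0. Kcnh7, which encodes an ERG channel of neurons, was at -1.27, -1.81, -0.32 and -1.23 in WT and at 0.71, -1.17, 0.03 and -1.72 in R6/2. R6/2 replicates 1 and 3 were above all WT arrays and R6/2 replicate 4 was among the lowest, for a difference of 0.62 (SE 0.55, 95% interval -0.64 to 1.88). The largest difference of the set above 0, that of Kcnh8 (0.73, SE 0.38, limma unadjusted p = 0.0897, adjusted p = 0.745), came from a dim probe above background on 3 WT arrays and 4 R6/2 arrays. Both tested Kcnh8 probes map to the strand opposite to that of the RefSeq gene, so whether they read the Kcnh8 mRNA is not settled here. Strand could be checked for 57 of the 86 probes, and 55 lay on the strand of their gene. Kcnh1, Kcnh2, Kcnh3 and Kcnh4 had differences of -0.48, -0.44, -0.33 and -0.25, Kcnh6 had 0.24, and Kcnh5, above background on 2 arrays of each group, had -0.81 with an SE of 1.20.

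The modulatory Kv5, Kv6, Kv8 and Kv9 subunits form no channel alone and change Kv2 channels they join. Of the 8 measured genes, 6 had a difference above 0, among them all 4 Kv6 genes (3 with the mean of a gene's probes), from 0.11 (Kcng2) to 0.59 (Kcng3). Kcng4, at 0.34, was above background on 1 WT array and 3 R6/2 arrays. Kcnf1, the Kv5 gene, had 0.40 (SE 0.31) and Kcnv1, the Kv8 gene, -0.21 (SE 0.46). The Kv9 genes Kcns1 and Kcns2 had 0.10 and -0.56, and both were below 0 with normexp. Of the KCNE genes, whose small proteins alter the gating of Kv7 and other channels, Kcne3 and Kcne4 had differences of -0.32 and -0.58 and Kcne1l had 0.14. Kcnq1ot1 had a difference of 0.59 (SE 0.33, limma unadjusted p = 0.108), and its arrays overlapped between groups. The plot of the other channel genes by array shows 10 of the genes given above with their values.

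**Figure D3:**
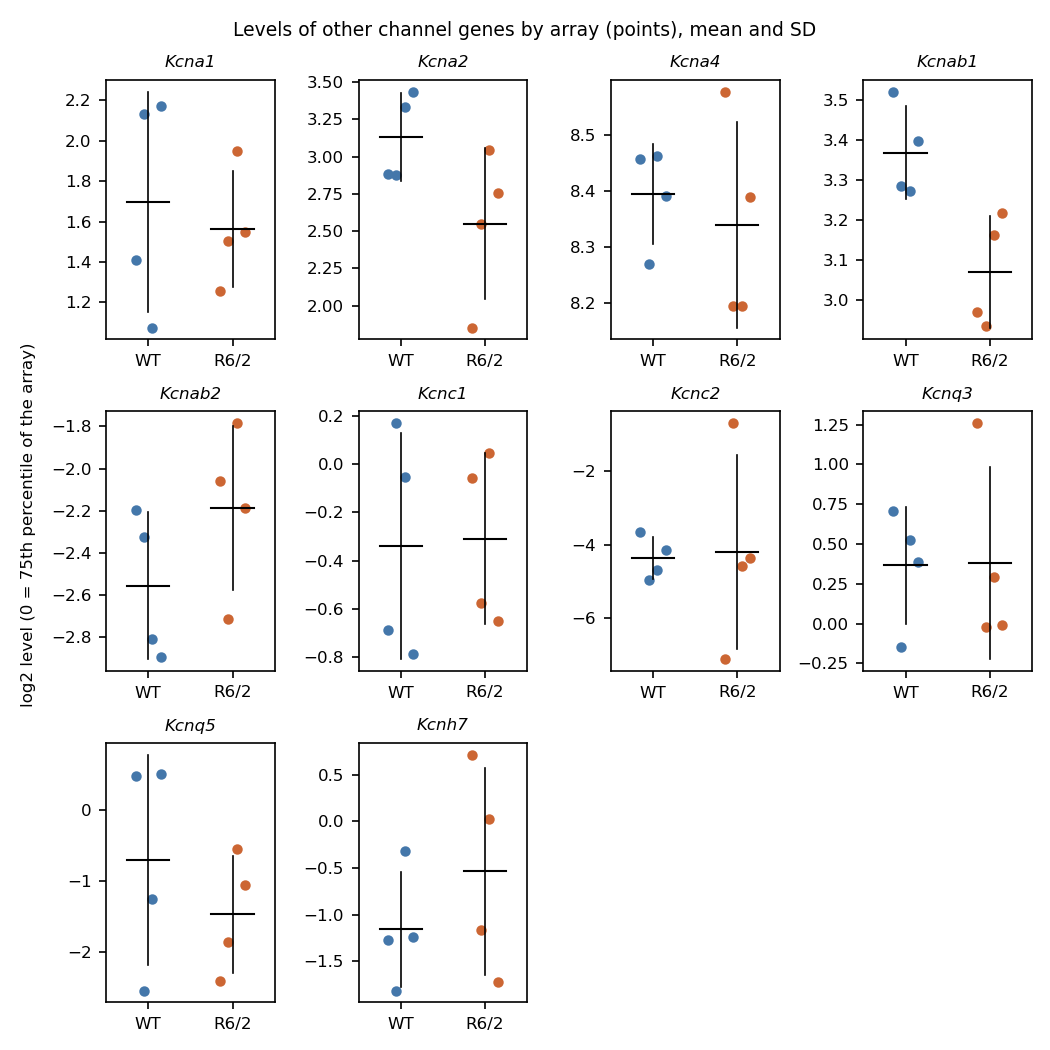
Level (log2, 0 at the 75th percentile of the array) of 10 Kv1, Kv beta, Kv3, Kv7 and ether-a-go-go family genes on each array, WT in blue and R6/2 in orange, with the mean (horizontal bar) and SD (vertical bar) of each group; the vertical axes differ between panels. In Kcnab1 the R6/2 points, from 2.93 to 3.22, lie below the WT points, from 3.27 to 3.52, and in the 9 other panels the groups overlap.

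Several genes had more than 1 tested probe, and the probes of a gene did not always give the same sign. Of the 18 such genes, 11 had probes that all shared a sign (7 below 0 and 4 above) and 7 did not. Over the 72 probes of the set, 5 were lower in R6/2 at an unadjusted p under 0.05 by limma, where 3.05% of all 41378 probes tested were, and 1 was higher, where 3.97% were. In 4 of the 72 probes all R6/2 arrays lay below all WT arrays, where 2.26% of all probes did, and in 1 they all lay above, where 2.3% did. After adjustment over all probes 0 of the 72 passed.

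Kcnq5 had 3 tested probes, all with a difference below 0. The one printed above was at -1.59, -1.36, -1.83 and -1.47 in WT and at -3.04, -2.01, -1.57 and -3.56 in R6/2, a difference of -0.98 (SE 0.43, limma unadjusted p = 0.0486, adjusted p = 0.708). R6/2 replicate 3 lay within the WT range and the other R6/2 arrays below it. The 2 other probes gave -0.58 and -0.77.

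For Kcnd1, the printed probe at the end of the coding sequence was at -0.50, -0.67, -0.56 and -0.77 in WT and at -1.06, -0.91, -0.90 and -1.63 in R6/2. All 4 R6/2 arrays were below the WT arrays on it, with a difference of -0.50 (SE 0.22, limma unadjusted p = 0.0538). A second Kcnd1 probe, at chrX:7400644-7400703, gave 0.50 (SE 0.33), and the probe used for the gene gave -0.31. Among the others, Kcnh4 had a probe at -0.88 (unadjusted p = 0.0493) beside -0.25 for the probe used. Kcng2 had a dim probe at 0.63 (unadjusted p = 0.0237), with all 4 R6/2 arrays above the WT arrays, beside 0.11. Kcnc1 spanned -0.65 to 0.81 over 3 probes, and the second probes of Kcnip1, Kcnip3 and Kcnip4 gave -0.47, -0.18 and 0.18, each opposite in sign to the probe used.

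**Figure D4:**
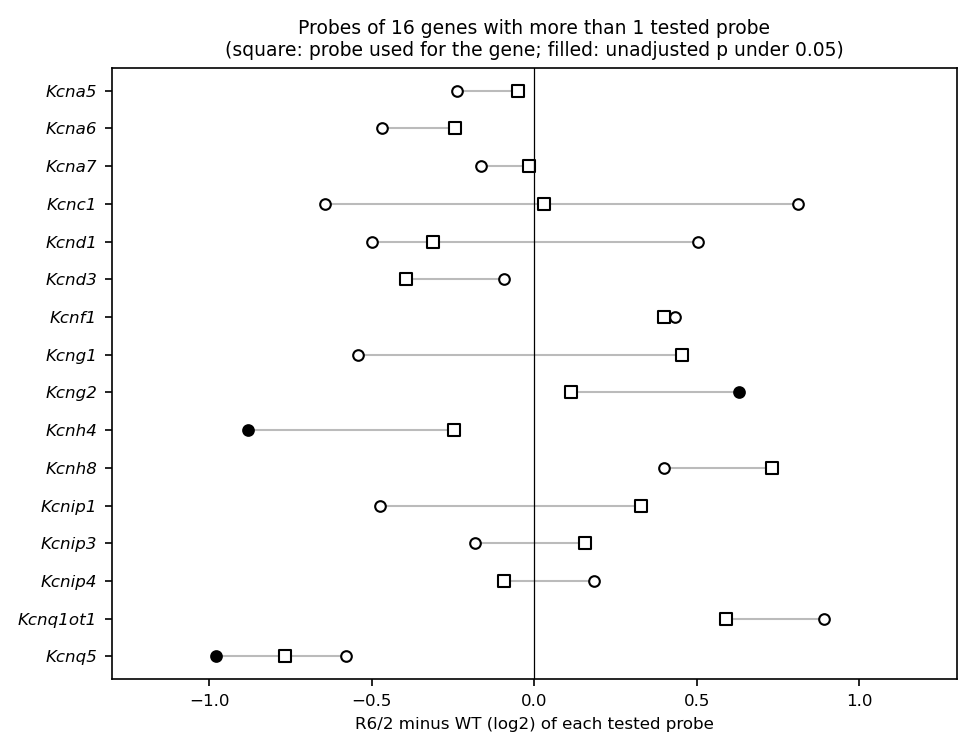
R6/2 minus WT difference (log2, horizontal axis) of every tested probe of 16 genes with more than 1, a square for the probe used for the gene and a circle for the others, filled where the unadjusted limma p is under 0.05. Kcnc1 spreads from -0.65 to 0.81 over 3 probes, while the 3 probes of Kcnq5 lie between -0.98 and -0.58.

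The channels work with other proteins, and 40 genes of such partners (DPP and other auxiliary proteins, scaffolds, calmodulins, kinases, the ubiquitin ligase of Kv7 and the receptors that act on these channels) were examined in the same fit. All 40 were measured, 29 with a difference below 0 (25 under quantile normalization) and 11 above, with a median of -0.21. Over all genes tested 45.99% were below 0, with a median of 0.03. None passed after adjustment. At an unadjusted p under 0.05, 4 of the 40 were lower in R6/2 and 0 higher, beside the 3.45% and 3.69% of all genes. In 4 of the 40 all R6/2 arrays lay below all WT arrays, where 2.57% of all genes did. These were Akap5, with a difference of -0.37 (SE 0.17), and Nedd4l, Chrm4 and Amigo1. Nedd4l, the ubiquitin ligase that removes Kv7 and other channels from the membrane, was at 3.05, 3.38, 3.06 and 3.01 in WT and 2.48, 2.77, 2.46 and 2.14 in R6/2. Its groups did not overlap and its difference was -0.66 (SE 0.20, limma adjusted p = 0.592). Chrm4, the muscarinic M4 receptor of direct pathway MSNs, was at -0.38, -0.70, -0.64 and -0.47 in WT and -1.68, -0.98, -0.88 and -1.72 in R6/2, again with no overlap. Its difference was -0.77 (SE 0.25, limma adjusted p = 0.613). Amigo1, which binds Kv2 channels, had 1.76, 2.01, 1.60 and 1.73 in WT and 1.39, 1.34, 1.50 and 1.02 in R6/2, with no overlap and a difference of -0.46 (SE 0.19, limma adjusted p = 0.672). Flna, the actin-binding filamin that anchors Kv4.2, was at 2.37, 2.58, 2.15 and 2.03 in WT and 0.86, 2.07, 1.73 and 1.11 in R6/2. R6/2 replicate 2 alone was within the WT range, and the difference was -0.84 (SE 0.30, limma adjusted p = 0.640). The part of the lower summed level of MSN markers in R6/2, given above, in the partners' differences was not tested. The same holds for the microglia sum, which was mostly Itgam.

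RefSeq promoter windows (GRCm38.p6, from 250 bases before to 50 after the start) were at hand for 34 of the 48 genes, 48 windows in all. The cyclic AMP response element TGACGTCA was in none of the 48 windows on either strand, where 1.8% of all 32851 windows hold it. Its shorter form TGACG, which lies within the full element, was in 10 of 48 (20.8%), the same share as over all windows. The Sp1 motif GGGCGG was in 24 of 48, among them the window of Kcnip2, where 35.7% of all windows hold it. A match is a run of letters and says nothing of binding.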

How the data were processed

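Spot intensity values came from the deposited scanner files, made with Agilent Feature Extraction 10.7.3.1 per the file headers. The other columns used, the software's flags (well above background, outlier) and probe names and mm9 positions, are also as deposited. The whole-series table holds, per the file headers, the authors' log2 values, the p-value of an unpaired t-test and an absolute fold change. Here outlier spots were dropped, the processed intensity was put on the log2 scale, repeat spots were averaged per probe, and each array was set relative to the 75th percentile of its non-control probes. Probes well above background on at least 4 of 8 arrays were tested, and where a gene had several, the one with the highest mean stood for it. Group differences were fitted with lmFit and eBayes (two-sided) of limma 3.58.1 under R 4.3.3 over all 26917 genes, and separately over all 41378 probes, with Benjamini-Hochberg adjustment and a threshold of 0.05. The fit was tested on simulated data with added changes larger than any difference of the set. That test does not bear on whether changes of the size seen here could be detected. Single values per array were compared by an exact permutation test.

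The genes, the partner and marker lists and the alternatives were chosen with earlier results of these data known. Values by array are given for all Kv4 and KChIP genes, and for members at an unadjusted p under 0.05 or with separate groups. They are also given for 10 further channel genes chosen by role, 1 of which (Kcnab1) also has separate groups. Partners are named at an unadjusted p under 0.05 by limma or with separate groups. Values by array for single probes were added after their differences were seen. 1 garbled line, with 2 spots and no probe of the set, was left out of R6/2 replicate 3. The number of arrays limits the precision. A further 4 genes count in the totals and are not reported here one by one. Exon and UTR annotation was not used here.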

Additional observations from a re-analysis of the deposited data

Results flagged for a closer look

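Of 34 groups of 4 arrays checked, 1 held an array whose gap to the nearest other, relative to the range, was above Dixon's 95% critical value for 4 values, and chance gives about 1 in 20 groups. For Kcnd2, R6/2 replicate 3 stood high, at 4.71 against 4.22 for the nearest R6/2 array. Without R6/2 replicate 3 the difference of Kcnd2 was -0.31 in place of -0.18, and it did not pass after adjustment.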

How the results depend on the processing

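Over all 19 alternatives no gene of the set was called after adjustment, and the median difference moved by less than the spread between arrays, although it was above 0 with the percentile over probes above background on all arrays (0.01), without R6/2 replicate 3 (0.00) and without WT replicate 4 (0.02). Kcnip2 kept an unadjusted p under 0.05 in all 19, with differences from -1.05 to -0.75 and adjusted p-values from 0.329 to 0.817. Genes with groups that do not overlap numbered 1 under quantile normalization and 1 with that percentile. Such genes numbered 3 with normexp, 3 with median centring and 3 when probes were averaged by gene. They numbered from 2 to 6 when an array was left out, which leaves fewer arrays that could overlap. Genes at an unadjusted p under 0.05 numbered 3 with the mean of a gene's probes, 2 by the methods' t-test and from 1 to 5 when an array was left out. The 5 arose without WT replicate 2 (Kcnip2, Kcnd2, Kcnq5, Kcns2 and Kcnq1ot1). The shares over all genes under these settings are not given here, so none of these counts is read as a result about the set.

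The replicate numbers did not pair the arrays (correlations of the deviations of same-numbered arrays of 0.03, -0.05, 0.00 and -0.01), and 1 of 4 numbers had its best match in itself. With the replicate block, 2 genes of the set (Kcnip2 and Kcna2) were at an unadjusted p under 0.05 by limma, again with no share over all genes beside the count. Slide could not be fitted as a block apart from leaving out R6/2 replicate 4, the only array of its slide; without it the difference of Kcnip2 was -0.84 (limma unadjusted p = 0.0142).

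The sign turned in 25 of 321 values of the 17 genes given by array: Kcnc2 under quantile normalization (-0.031), Kcnc1 (-0.012) and Kcnq3 (-0.030) with median centring, Kcnq3 with array weights (-0.076), and Kcnip1 (-0.073), Kcnip3 (-0.013) and Kcnip4 (0.045) with the mean of a gene's probes. When an array was left out, the ranges crossed 0 for Kcnd1 (-0.71 to 0.14), Kcnd2 (-0.54 to 0.016), Kcnip1 (-0.22 to 1.03), Kcnip4 (-0.24 to 0.019), Kcna1 (-0.34 to 0.025), Kcnc1 (-0.12 to 0.20), Kcnc2 (-0.99 to 1.15) and Kcnq3 (-0.28 to 0.15).

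Over all genes tested, the count called was 1, and 8 with normexp, 8 with quantile normalization, 4 with median centring, 6 with probes above background on all arrays, 5 with the mean of probes, 9 with array weights, 0 by the t-test and with the block, and 0 to 3 when an array was left out. Dim genes (among them Kcnc2, Kcnh5, Kcng4, Kcne4 and Kcna10) are limited by their signal over background.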
